A study of Mus musculus with 23 samples.

Results

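The 10 genes described here encode the D cyclins (Ccnd1, Ccnd2 and Ccnd3), the kinases Cdk4, Cdk6 and Cdk14, and the CDK inhibitors Cdkn1a, Cdkn1b, Cdkn2b and Cdkn2c. They were taken by gene symbol from a count table of 24917 gene loci, where each symbol stood once. The rule that picks them uses names and no measured value, but the list was drawn up with earlier results of these data known. RNA was measured by Ribo-Zero RNA-seq, a total RNA method that removes ribosomal RNA, in colonic epithelium released with EDTA from the entire colon of aged male C57BL/6 mice (C57BL/6J in the study's methods). From 6 weeks of age, LF mice (control mice) ate a 10% fat diet for 43 weeks, HF mice (obese mice) ate a 60% fat diet for 43 weeks, and HFLF mice (formerly obese mice) were given the 60% fat diet for 15 weeks before a switch to the 10% fat diet for another 28 weeks. Batch 1 held 4 LF, 4 HFLF and 3 HF samples, and batch 2 held 4 LF, 5 HFLF and 3 HF samples. No group carried a genetic change, and nothing in the sources used here says which samples came from separate mice, so p-values measure the spread between these samples and the fit over both batches may count a mouse more than once.

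In the G1 phase of the cell cycle, D cyclins bind and activate Cdk4 and Cdk6, which phosphorylate the retinoblastoma protein and its relatives and so release E2F factors that drive the genes of S phase. The inhibitors of the INK4 family, to which Cdkn2b (p15) and Cdkn2c (p18) belong, bind Cdk4 and Cdk6 directly, whereas the CIP and KIP inhibitors Cdkn1a (p21) and Cdkn1b (p27) mainly restrain the later kinase Cdk2 and can also help cyclin D complexes to assemble. Cdk14 is a membrane-associated kinase that works with cyclin Y and phosphorylates the Wnt co-receptor LRP6. In the colon, dividing cells sit in the lower crypt and leave the cycle as they differentiate toward the surface.

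Over both batches Cdk4 rose and Cdk6 and Cdk14 fell in obese mice, so the sequence just before each of their starts is shown for orientation. RefSeq promoter entries (GRCm38.p6) matched 8 of the 10 genes, and Ccnd1 and Ccnd2 were not matched. The 250 bases upstream of the RefSeq start are printed 5′ to 3′ on the gene's own strand, with capitals marking CACGTG (the E-box bound by Myc and other factors) and GGGCGG (the GC box bound by Sp factors), each searched on both strands. The window of Cdk4 lies at chr10:127063285-127063534 (plus strand), Cdk6 at chr5:3343643-3343892 (plus strand) and Cdk14 at chr5:5380252-5380501 (minus strand).
Cdk4: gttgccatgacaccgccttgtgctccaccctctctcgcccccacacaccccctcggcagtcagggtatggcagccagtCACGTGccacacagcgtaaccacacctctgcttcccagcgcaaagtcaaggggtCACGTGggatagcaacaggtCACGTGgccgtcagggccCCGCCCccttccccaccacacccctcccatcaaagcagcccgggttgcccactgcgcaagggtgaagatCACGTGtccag
Cdk6: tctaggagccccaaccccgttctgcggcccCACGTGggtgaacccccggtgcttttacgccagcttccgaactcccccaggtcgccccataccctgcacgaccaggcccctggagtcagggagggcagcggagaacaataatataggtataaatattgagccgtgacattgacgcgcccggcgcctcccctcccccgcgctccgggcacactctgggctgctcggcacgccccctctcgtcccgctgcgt
Cdk14: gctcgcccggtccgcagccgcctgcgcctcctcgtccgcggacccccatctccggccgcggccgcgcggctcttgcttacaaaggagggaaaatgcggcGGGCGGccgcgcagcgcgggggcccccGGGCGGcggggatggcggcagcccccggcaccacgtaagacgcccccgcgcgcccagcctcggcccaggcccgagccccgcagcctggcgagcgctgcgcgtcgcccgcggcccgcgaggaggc
The Cdk4 window held CACGTG 4 times and the GC box once on the opposite strand, the Cdk6 window held CACGTG once, and the Cdk14 window held GGGCGG at 2 places. Of 32851 promoter windows of the same length, 6.02% held CACGTG and 32.7% held GGGCGG. The E2F site letters TTTCCCGC or TTTGGCGC were found in 1.3% of all windows and in 0 of the 11 windows of the 8 matched genes. Of those 11 windows, CACGTG was found in 2 (those of Cdk4 and Cdk6) and GGGCGG in 7. These are matches of letters, and no binding was measured.

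All 10 genes passed the filter on low counts in both batches. Between 29189922 and 46498521 reads per sample were counted in batch 1 and between 31607019 and 65320947 in batch 2, and the lowest count of a member in any sample was 47, for Cdk14. Levels are given as CPM, counts scaled to a common library size within a batch (TMM). The epithelial markers (10 of 10 listed) summed to 15530 to 26862 CPM per sample, while the summed markers of fibroblasts and smooth muscle (10 of 10 listed) lay between 3.43 and 95.2 CPM, those of lymphocytes (11 of 12) between 11.5 and 29.97 CPM, those of myeloid cells (5 of 6) between 6.20 and 15.6 CPM and those of endothelium and nerve (8 of 8) between 7.46 and 21.1 CPM.

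The 10 genes lie on 6 chromosomes of mm10. The D cyclin genes are at chr7:144929931-144939925 (Ccnd1, minus strand), chr6:127125709-127151048 (Ccnd2, minus strand) and chr17:47505051-47599688 (Ccnd3, plus strand). The kinase genes are at chr10:127063603-127067282 (Cdk4, plus strand), chr5:3344312-3522225 (Cdk6, plus strand) and chr5:4803385-5380251 (Cdk14, minus strand), so Cdk6 and Cdk14 share a chromosome. The inhibitor genes are at chr17:29090986-29100722 (Cdkn1a, plus strand), chr6:134920401-134925525 (Cdkn1b, plus strand), chr4:89306289-89311032 (Cdkn2b, minus strand) and chr4:109660876-109665372 (Cdkn2c, minus strand).

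Levels of different genes can be compared only per length. In LF mice of batch 1, Cdkn2b stood highest at 41.6 CPM per kb of exon, followed by Cdkn1a at 40.3, Cdk4 at 25.5, Ccnd2 at 25.0, Ccnd1 at 18.9, Cdkn1b at 17.9, Ccnd3 at 13.8, Cdk6 at 3.34, Cdkn2c at 1.47 and Cdk14 at 0.798 CPM per kb (means, n = 4). In that order the ranges over samples overlapped between Cdkn2b and Cdkn1a, Cdk4 and Ccnd2, Ccnd2 and Ccnd1, Ccnd1 and Cdkn1b, and Cdkn2c and Cdk14, and the other neighbours did not overlap. In LF mice of batch 2, Cdk4 was second at 38.5 CPM per kb, ahead of Cdkn1a at 35.5 CPM per kb with overlapping ranges, and the other genes kept that order. Cdk4 was thus the more abundant of the 2 partner kinases of the D cyclins per length, and Ccnd2 had the highest mean of the D cyclins, although its range overlapped that of Ccnd1 in LF mice of both batches.

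**Figure D1:**
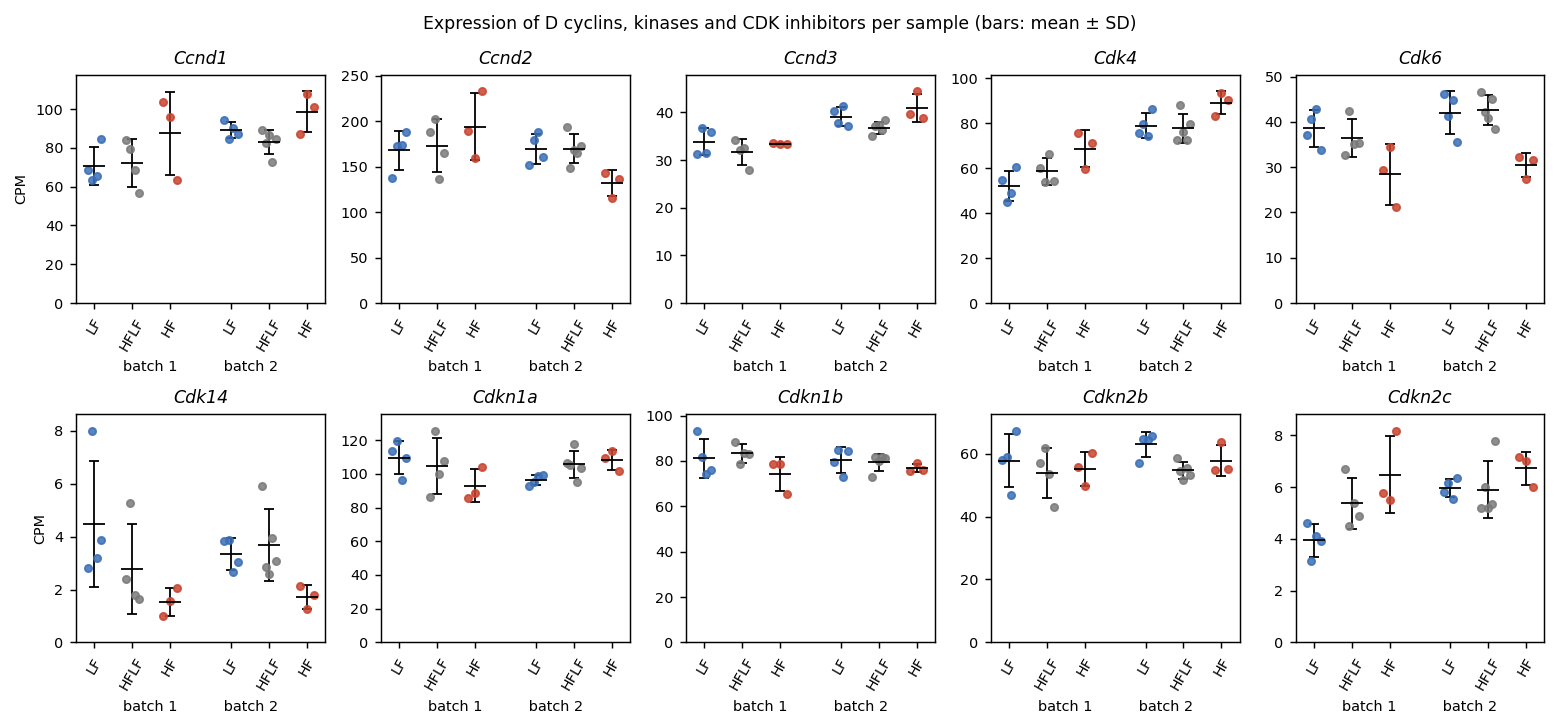
CPM of each gene (vertical axes, each from 0) in every sample of the LF, HFLF and HF groups of batches 1 and 2 (points), with the mean and SD of each group (bars). In batch 2 all 3 HF samples lie below all 4 LF samples for Ccnd2, Cdk6 and Cdk14 and above them for Cdkn1a. In batch 1 the HF samples of Cdk14 lie below and those of Cdkn2c above the LF samples. Of all genes, 13.5% lay below and 13.8% above in this way in batch 2, and 7.33% below and 6.29% above in batch 1.

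The first comparison, obese against control mice, asked which of these genes differed after 43 weeks of high-fat feeding. In batch 2, Cdk6, Cdk14 and Ccnd2 fell in HF mice, and none of the 10 passed the adjusted threshold in the higher direction. In batch 1, no member passed the adjusted threshold, while Cdk6 and Cdk14 lay on the same side as in batch 2 and Ccnd2 on the other. With both batches in one fit, Cdk6 and Cdk14 fell and Cdk4 and Cdkn2c rose.

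A gene was called changed when its Benjamini-Hochberg adjusted p from edgeR's quasi-likelihood test over all genes was under 0.05 and its fold change was above 1.2. In batch 2, 3 of the 10 members were called, all lower, beside 7.44% of all 14377 genes called, 4.4% called lower and 3.03% called higher. At an unadjusted p under 0.05 stood 5 members (Ccnd2, Cdk4, Cdk6, Cdk14 and Cdkn1a), beside 33.1% of all genes. The HF and LF samples did not overlap for 4 members, 3 lower and 1 higher, beside 27.3% of all genes (13.5% lower and 13.8% higher). Without LF replicate 1, LF replicate 3, HF replicate 2 or HF replicate 3 of batch 2, 0 members were called, and between 15 and 49 genes in all. Under those 4 omissions the log2 fold changes ran from -0.49 to -0.38 for Cdk6, from -0.41 to -0.27 for Ccnd2 and from -1.05 to -0.78 for Cdk14, with adjusted p from 0.0671 to 0.215 by edgeR. Without LF replicate 2 the call of Cdk6 remained (336 genes in all), and without HF replicate 1 those of Cdk6 and Ccnd2 (802 genes in all). In batch 1, edgeR called 0 of the 10 members and 0% of 14428 genes, with 4 members (Cdk4, Cdk6, Cdk14 and Cdkn2c) at an unadjusted p under 0.05 beside 22.2% of all genes. On the same batch 1 samples, DESeq2 called 2 members (Cdk14 lower, Cdkn2c higher) beside 3.55% of genes, and limma voom with sample weights called 6 (Ccnd1, Cdk4 and Cdkn2c higher, Cdk6, Cdk14 and Cdkn1a lower) beside 16.8% of genes. Without HF replicate 2 of batch 1, edgeR called 3 members (Cdk4, Cdk6 and Cdkn2c) and 1352 genes in all. Over both batches 4 members were called, 2 higher and 2 lower, beside 18.1% of 14385 genes called, 9% higher and 9.11% lower. The median log2 fold change of the members over both batches was -0.05, and that of all genes -0.01.

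Among the D cyclins, Ccnd2, the D cyclin with the highest mean per length in LF mice, had fold changes of opposite sign in the 2 batches. In batch 1, Ccnd2 stood at 138, 173, 174 and 188 CPM in the LF samples and at 189.6, 159.6 and 233 CPM in the HF samples. The HF samples reached both higher than all LF samples and into their range, so the groups overlapped. In batch 2, Ccnd2 stood at 152, 179, 188 and 160.3 CPM in the LF samples and at 143, 116 and 137 CPM in the HF samples. Here every HF sample lay below every LF sample, as was true of 13.5% of all genes. The log2 fold change of Ccnd2, HF against LF, was 0.21 (SE 0.16, adjusted p = 0.422 by edgeR) in batch 1 and -0.36 (SE 0.10, adjusted p = 0.0406) in batch 2. The difference between those changes was -0.57 on the log2 scale (SE 0.19, unadjusted p = 0.0062 in edgeR's interaction test), and its adjusted p over all genes was 0.688. Over both batches Ccnd2 differed by -0.07 (SE 0.11, adjusted p = 0.677).

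Ccnd1, the cyclin D1 gene and a known target of Wnt signaling in the intestine, had a mean of 87.5 ± 21.4 CPM (SD, n = 3) in HF mice against 70.6 ± 9.65 CPM (n = 4) in LF mice of batch 1. In batch 1 the third HF sample, at 63.3 CPM, was below all LF samples and the other 2, at 104 and 95.7 CPM, were above them. In batch 2 the means of Ccnd1 were 98.7 ± 10.5 CPM in HF mice (n = 3) and 89.1 ± 4.10 CPM in LF mice (n = 4), with overlapping groups. Ccnd1 had a log2 fold change of 0.31 (SE 0.17) in batch 1, 0.15 (SE 0.08) in batch 2 and 0.23 (SE 0.10, adjusted p = 0.0768 by edgeR) over both, and it was called over both batches without HF replicate 3 of batch 1 (0.32, adjusted p = 0.0233) or without LF replicate 4 of batch 1 (0.28, adjusted p = 0.0390). Ccnd3, the third D cyclin, lay between 31.2 and 44.4 CPM in all LF and HF samples and its log2 fold change over both batches was 0.03 (95% interval -0.08 to 0.13).

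Cdk4 was higher in HF mice over both batches. In batch 1, Cdk4 stood at 54.6, 45.1, 49.0 and 60.4 CPM in the LF samples and at 75.5, 59.5 and 71.0 CPM in the HF samples. In batch 2, the LF samples stood at 75.7, 79.6, 74.2 and 86.4 CPM and the HF samples at 83.4, 93.4 and 90.2 CPM. In each batch 2 of the 3 HF samples lay above all LF samples and the third lay inside their range. Expressed as log2 fold change, Cdk4 differed by 0.39 (SE 0.12, adjusted p = 0.160 by edgeR) in batch 1, 0.17 (SE 0.08, adjusted p = 0.130) in batch 2 and 0.28 (SE 0.07, adjusted p = 0.0103) over both batches. The fold over both batches, 1.22, was close to the threshold of 1.2, and the call was lost on fold size without LF replicate 2 (log2 fold change 0.26) or HF replicate 1 (0.24) of batch 1. Exons of Cdk4 share 641 bases with Tspan31 on the opposite strand, whose log2 fold change over both batches was 0.30 (SE 0.08, adjusted p = 0.0102), and since the strand setting of the counting is not given in the sources used here, reads of the pair cannot be told apart. The same limit holds for Ccnd1, which shares 818 exon bases with Lto1 (-0.12, adjusted p = 0.151), for Ccnd3, which shares 361 with Bysl (0.20, adjusted p = 0.115), and for 3 members that share exon bases with opposite-strand genes not listed in the counts under the names searched, namely Ccnd2 (372), Cdkn1a (273) and Cdk6 (110).

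Cdk6, the other catalytic partner of the D cyclins, was lower in HF mice, opposite in sign to Cdk4. In batch 1, Cdk6 stood at 37.0, 40.5, 42.9 and 33.7 CPM in the LF samples and at 29.4, 34.5 and 21.3 CPM in the HF samples. In batch 2, the LF samples stood at 46.2, 41.3, 44.8 and 35.6 CPM and the HF samples at 32.3, 27.4 and 31.6 CPM. The HF samples of batch 2 were all below the LF samples, as was true of 13.5% of all genes, and in batch 1 a single HF sample reached into the LF range. The log2 fold change of Cdk6 was -0.44 (SE 0.15, adjusted p = 0.166 by edgeR) in batch 1, -0.46 (SE 0.09, adjusted p = 0.0245) in batch 2 and -0.45 (SE 0.09, adjusted p = 0.00383) over both batches. The changes in the 2 batches differed by -0.02 on the log2 scale (SE 0.18). Over both batches Cdk6 was called in 20 of 20 alternatives, with log2 fold changes from -0.52 to -0.37.

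Cdk14 had the lowest level and the largest change of the 10 genes. In batch 1, Cdk14 stood at 2.83, 8.01, 3.20 and 3.88 CPM in the LF samples and at 1.01, 1.55 and 2.07 CPM in the HF samples. In batch 2, the LF samples stood at 3.85, 3.87, 2.67 and 3.04 CPM and the HF samples at 2.12, 1.25 and 1.77 CPM. Every HF sample lay below every LF sample in both batches, as was true of 7.33% of all genes in batch 1 and 13.5% in batch 2, each batch taken alone. Cdk14 had a log2 fold change of -1.53 (SE 0.47, adjusted p = 0.160 by edgeR) in batch 1, -0.96 (SE 0.27, adjusted p = 0.0447) in batch 2 and -1.25 (SE 0.29, adjusted p = 0.00643) over both, and the last was called in 20 of 20 alternatives. These correspond to 2.88-fold, 1.94-fold and 2.38-fold lower levels.

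The bulk samples cannot tell fewer cells of a type from less RNA per cell. The summed fibroblast and smooth muscle markers were 16.9 to 35.5 CPM in LF and 3.43 to 37.6 CPM in HF samples of batch 1, and 14.2 to 60.6 CPM in LF and 5.07 to 20.3 CPM in HF samples of batch 2. Over both batches all 10 of these markers had a negative log2 fold change in HF mice (median -1.04), and Pdgfra was the one called (-1.20). Within the batches, 6 of the 10 were negative in batch 1 (median -0.07) and 10 of 10 in batch 2 (median -1.35). Each of the 10 had reads in every sample, so none stood at 0. Of the endothelium and nerve markers, 5 of 8 were tested, all 5 had a negative log2 fold change and Vwf was called (-0.49). All 5 tested myeloid markers (median -0.42) and 6 of 7 tested lymphocyte markers (median -0.38) were negative as well, and 0 of them were called. The part of these cells in the lower Cdk14, Cdk6 and Ccnd2 of HF mice was not tested.

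**Figure D2:**
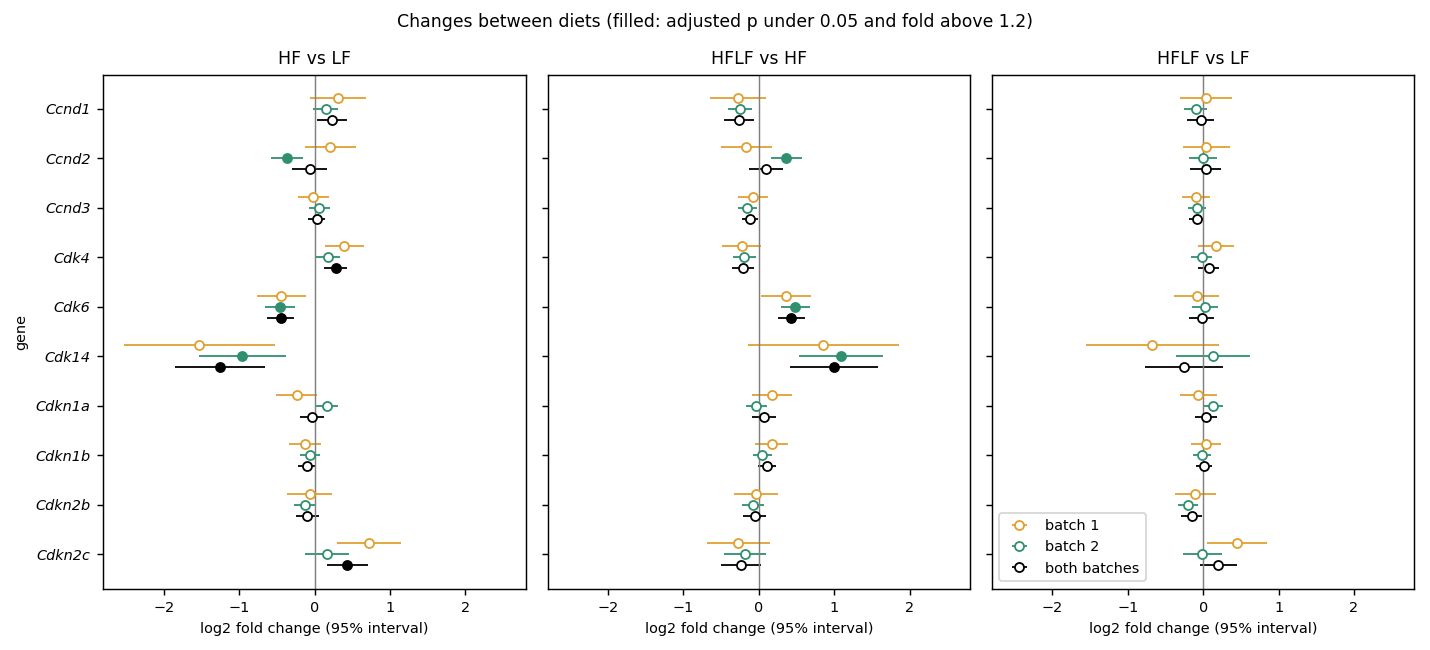
Log2 fold change (horizontal axes, with 95% intervals from the fit) of each gene for HF against LF, HFLF against HF and HFLF against LF in batch 1, batch 2 and both batches; filled points passed the adjusted p and fold thresholds. Cdk6 and Cdk14 lie below 0 in HF against LF and above 0 in HFLF against HF in all 3 fits, and no point is filled in HFLF against LF.

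Of the inhibitors, Cdkn2c was the one called over both batches, and it was higher in HF mice. In batch 1, Cdkn2c stood at 4.63, 3.13, 4.09 and 3.91 CPM in the LF samples and at 5.78, 5.50 and 8.18 CPM in the HF samples. In batch 2, the LF samples stood at 5.81, 6.18, 5.55 and 6.34 CPM and the HF samples at 7.15, 7.02 and 6.01 CPM. The groups did not overlap in batch 1, as was true in that direction of 6.29% of all genes, and they overlapped in batch 2. On the log2 scale Cdkn2c differed by 0.72 (SE 0.20, adjusted p = 0.155 by edgeR) in batch 1, 0.17 (SE 0.14, adjusted p = 0.399) in batch 2 and 0.43 (SE 0.13, adjusted p = 0.0197) over both. The call over both batches was lost without HF replicate 3 of batch 1 (0.34, adjusted p = 0.0583) and with limma voom (0.26, adjusted p = 0.127), and the changes in the 2 batches differed by -0.55 (SE 0.24, unadjusted p = 0.0323, adjusted p = 0.739 by edgeR's interaction test).

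Cdkn1a, the p21 gene and a classical p53 target, had fold changes of opposite sign in the batches and passed the threshold in neither. In batch 1, it stood at 114, 119.5, 96.3 and 109 CPM in the LF samples and at 85.9, 88.8 and 104 CPM in the HF samples. In batch 2, it stood at 92.7, 95.2, 98.9 and 99.3 CPM in the LF samples and at 109, 114 and 102 CPM in the HF samples. The HF samples of batch 2 all lay above the LF samples, as was true of 13.8% of all genes, and in batch 1 the groups overlapped with 2 HF samples below the LF range. On the log2 scale Cdkn1a differed by -0.24 (SE 0.12, adjusted p = 0.267 by edgeR) in batch 1 and 0.17 (SE 0.07, adjusted p = 0.107) in batch 2. The difference of 0.40 (SE 0.14) had an unadjusted p of 0.00911 and an adjusted p of 0.70 by edgeR's interaction test, which called 0 of the 14385 genes and gave an unadjusted p under 0.05 for 6.56% of them.

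Cdkn1b, the p27 gene, and Cdkn2b, the p15 gene, were called in no comparison by edgeR. Cdkn1b lay between 65.6 and 93.3 CPM in the LF and HF samples of both batches, with a log2 fold change of -0.13 (95% interval -0.35 to 0.08) in batch 1 and -0.06 (-0.20 to 0.07) in batch 2. Cdkn2b lay between 47.0 and 67.3 CPM, with a log2 fold change of -0.07 (-0.36 to 0.23) in batch 1 and -0.12 (-0.27 to 0.02) in batch 2. The intervals over both batches were -0.22 to 0.02 for Cdkn1b and -0.25 to 0.06 for Cdkn2b.

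Within a library, the ratio of Cdk4 to Cdk6 does not depend on how libraries are scaled. Per kb of exon, it lay between 6.24 and 10.1 in LF and between 9.69 and 18.8 in HF samples of batch 1, and between 9.19 and 13.6 in LF and between 14.5 and 19.1 in HF samples of batch 2. The HF samples were apart from the LF samples in batch 2 and overlapped them in batch 1, where 1 of 3 HF samples lay in the LF range. In HFLF mice the ratio was 7.12 to 10.6 in batch 1 and 8.76 to 11.7 in batch 2. Of the summed D cyclins per kb, Ccnd2 made up 35.1% to 41.2% in LF and 26.9% to 35.1% in HF samples of batch 2, and Ccnd1 made up 34.9% to 39.2% in LF and 38.3% to 44.9% in HF samples. In batch 1 the third HF sample had the highest Ccnd2 share of its batch (53.2%) and the lowest Ccnd1 share (25.9%). Cdk4 has 2.053 kb of exon and Cdk6 11.525 kb. The median log2 fold change, HF against LF, of genes near the length of Cdk4 was 0.04 in batch 1 and 0.06 in batch 2. That of the longest of 10 classes by exon length, which holds Cdk6 but has a median length of 8.67 kb, was -0.08 and -0.19. The part of length, or of the Tspan31 overlap of Cdk4, in the Cdk4 to Cdk6 ratio was not tested. These ratios are descriptions and were not tested between diets.

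**Figure D3:**
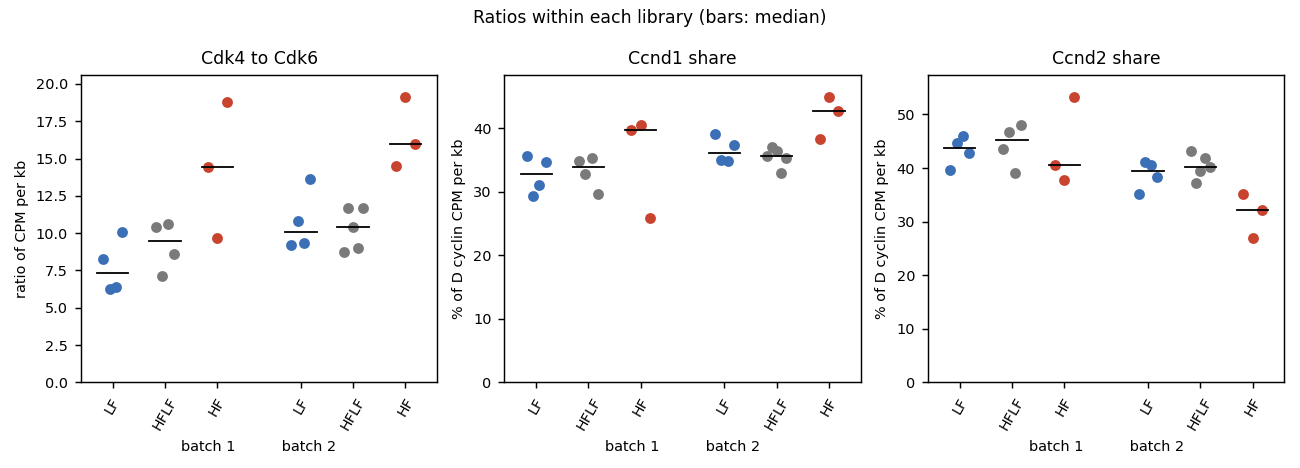
Ratio of Cdk4 to Cdk6 in CPM per kb (left) and the percentage of the summed D cyclin CPM per kb made up by Ccnd1 (middle) and Ccnd2 (right) in every sample (points), with the median of each group (bars). The Cdk4 to Cdk6 ratio of the HF samples of batch 2 lies between 14.5 and 19.1, above the LF samples at 9.19 to 13.6. Cdk4 has 2.053 kb of exon and Cdk6 11.525 kb, and the part of length in the ratio was not tested.

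Exon length moved with the change across all genes. Genes were sorted by exon length into 10 classes of nearly equal size, and 99.2% of tested genes had a length. The median log2 fold change, HF against LF, went from 0.12 in the shortest class to -0.08 in the longest in batch 1, and from 0.14 to -0.19 in batch 2. Cdk6, at 11.525 kb, stands in the longest class, whose median length was 8.67 kb. Cdk14 (5.614 kb) and Ccnd2 (6.711 kb) stand in class 9, Cdkn2c (2.686 kb) in class 5 and Cdk4 (2.053 kb) in class 3, counted from the shortest. Against genes of its own class, Cdk6 had a change at the 9.24th percentile in batch 1 and the 12.6th in batch 2, and Cdk14 at the 0.0697th and the 1.82nd. Ccnd2 stood at the 83.8th percentile of its class in batch 1 and the 13.7th in batch 2, Cdk4 at the 90.4th and the 69.7th, and Cdkn2c at the 97.3rd and the 76.5th. The part of length in these changes was not tested.

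**Figure D4:**
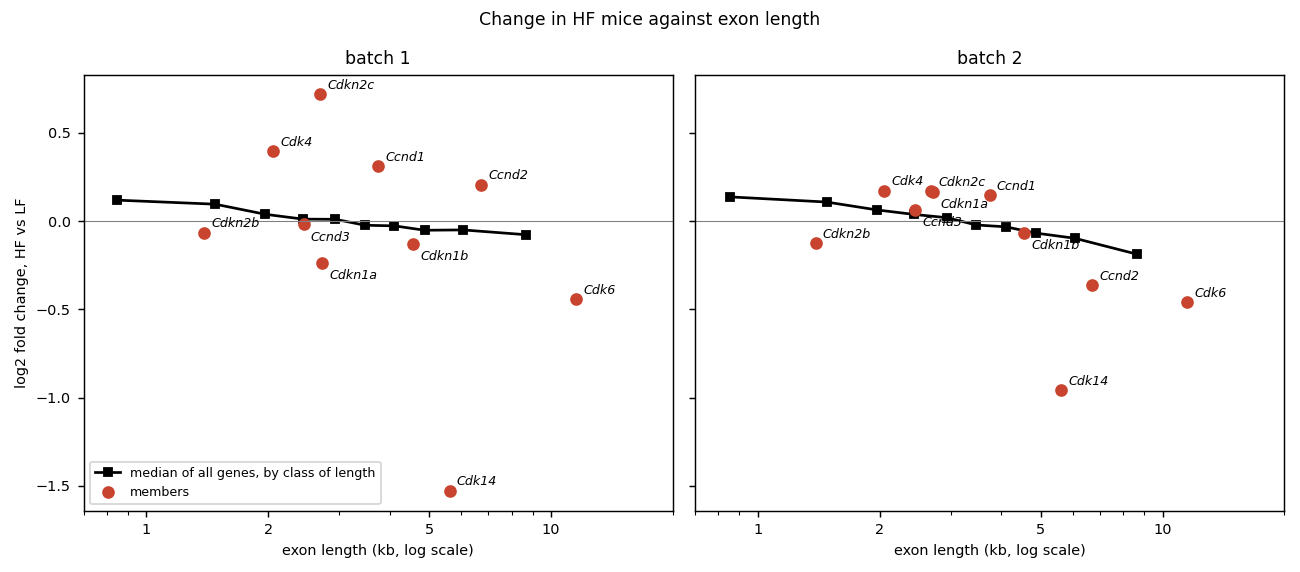
Log2 fold change, HF against LF, of the members (labelled points) against exon length in kb on a log scale in batch 1 and batch 2, with the median of all genes in each class of length (squares joined by a line). The line falls from 0.12 to -0.08 in batch 1 and from 0.14 to -0.19 in batch 2, and Cdk14 lies below it in both. Cdk6, at 11.525 kb, lies beyond the end of the line at 8.67 kb and lower than its last point in both.

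The second comparison, formerly obese against obese mice, asked which of the genes differed after return to the low-fat diet. Since both comparisons used the same HF samples, an HF value that is low in the first gives a change of the other sign in the second. In batch 2, Ccnd2, Cdk6 and Cdk14 rose in HFLF mice relative to HF mice. No member was called in batch 1, where Cdk6 and Cdk14 lay on the same side as in batch 2, and Cdk6 and Cdk14 rose over both batches.

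In batch 2, 3 of 10 members were called, all higher, beside 14.5% of all genes called, 8.89% called higher and 5.61% called lower, and 6 had an unadjusted p under 0.05 beside 38.2% of genes. Without HF replicate 2 of batch 2, 0 members and 11 genes in all were called. Without HF replicate 3 of that batch, 1 member (Cdk6) and 684 genes in all were called. In batch 1, edgeR called 0 members beside 0.00693% of genes, and 1 member (Cdk6) had an unadjusted p under 0.05 beside 10.9% of genes, while DESeq2 and limma voom also called 0 members. Over both batches 2 members were called, both higher, beside 10.3% of genes called, 5.44% higher and 4.9% lower, and 5 members had an unadjusted p under 0.05 beside 35.8% of genes. In batch 1, Cdk6 stood at 32.6, 42.4, 35.1 and 35.4 CPM in the HFLF samples, and in batch 2 at 46.6, 42.1, 40.9, 45.1 and 38.3 CPM. Its HFLF samples lay above all HF samples in batch 2, while 1 of the 4 HFLF samples of batch 1 lay below the highest HF sample. The log2 fold change of Cdk6, HFLF against HF, was 0.36 (SE 0.15, adjusted p = 0.434 by edgeR) in batch 1, 0.48 (SE 0.09, adjusted p = 0.0127) in batch 2 and 0.43 (SE 0.09, adjusted p = 0.00909) over both.

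Cdk14 stood at 2.39, 5.29, 1.81 and 1.66 CPM in the HFLF samples of batch 1 and at 5.93, 2.87, 2.60, 3.96 and 3.07 CPM in those of batch 2. In batch 2 all 5 were above the HF samples, and in batch 1 the groups overlapped with 2 of 4 HFLF samples above the HF range. The log2 fold change of Cdk14 was 0.85 (SE 0.46, adjusted p = 0.495 by edgeR) in batch 1, 1.09 (SE 0.26, adjusted p = 0.0195) in batch 2 and 1.00 (SE 0.28, adjusted p = 0.0239) over both. The last was lost without HFLF replicate 2 of batch 1 (0.84, adjusted p = 0.0568), HF replicate 1 of batch 1 (0.90, adjusted p = 0.0572) or HF replicate 2 of batch 2 (0.91, adjusted p = 0.0687). The summed fibroblast and smooth muscle markers were 14.8 to 95.2 CPM in HFLF samples of batch 1 and 9.09 to 36.9 CPM in those of batch 2.

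Ccnd2 stood at 188, 203, 136 and 165 CPM in the HFLF samples of batch 1 and at 194, 149, 168, 166 and 173 CPM in those of batch 2. All 5 HFLF samples of batch 2 were above the HF samples, and the groups overlapped in batch 1. The log2 fold change of Ccnd2 was -0.17 (SE 0.16) in batch 1 and 0.36 (SE 0.09, adjusted p = 0.0229 by edgeR) in batch 2, with a difference between the batches of 0.52 (SE 0.19, unadjusted p = 0.0101, adjusted p = 0.641), beside 7.68% of all genes at an unadjusted p under 0.05 in that interaction test. Ccnd1 was lower in HFLF than in HF mice of batch 2 at -0.25 (SE 0.08, adjusted p = 0.0370 by edgeR), with a fold under 1.2, and was called there in 4 of 14 alternatives. Over both batches it differed by -0.26 (SE 0.09, adjusted p = 0.0579 by edgeR) and was called in 5 of 21 alternatives. Among those were DESeq2 (adjusted p = 0.0351) and limma voom (adjusted p = 0.0213), beside 12.2% and 10.5% of all genes. Ccnd3 had no HFLF sample of batch 2 (35.0 to 38.4 CPM) inside the HF range (38.7 to 44.4 CPM) at -0.15 (SE 0.06, adjusted p = 0.0835 by edgeR). Of the 10 members 4 did not overlap in batch 2, as was true of 27% of all genes.

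Exon length moved with this comparison too, with the HF samples shared. The median log2 fold change of all genes, HFLF against HF, went from -0.10 in the shortest class to 0.04 in the longest in batch 1 and from -0.16 to 0.21 in batch 2. Within its own class Cdk6 stood at the 91.5th percentile in batch 1 and the 87.2nd in batch 2, Cdk14 at the 97.6th and the 99.3rd, and Ccnd2 at the 15.8th and the 85.7th. The part of length in the higher Cdk6, Cdk14 and Ccnd2 of HFLF mice was not tested.

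Cdk4 stood between 53.7 and 66.3 CPM in the HFLF samples of batch 1 and between 72.4 and 88.0 CPM in those of batch 2. Its log2 fold change, HFLF against HF, was -0.21 (SE 0.07, adjusted p = 0.0469 by edgeR) over both batches, with a fold of 1.16 in the lower direction, under the threshold. Cdkn2c stood between 4.49 and 6.72 CPM in the HFLF samples of batch 1 and between 5.19 and 7.77 CPM in those of batch 2, with a log2 fold change of -0.23 (95% interval -0.50 to 0.03) over both. Cdkn1a, Cdkn1b and Cdkn2b were not called in any of the fits, with log2 fold changes over both batches of 0.07, 0.11 and -0.06.

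The third comparison, formerly obese against control mice, asked whether the genes still differed from lifelong low-fat feeding. No member was called in batch 1, in batch 2 or over both batches by edgeR, where 0%, 0.00696% and 0% of all genes were called. At an unadjusted p under 0.05 stood 1 member in batch 1 (Cdkn2c, 0.44), 2 in batch 2 (Cdkn1a, 0.13, and Cdkn2b, -0.20) and 1 over both (Cdkn2b, -0.15), beside 5.29%, 4.65% and 4.11% of all genes. DESeq2 and limma voom also called 0 members in each of the 3 fits. The 95% intervals over both batches were -0.18 to 0.14 for Cdk6, -0.07 to 0.21 for Cdk4, -0.05 to 0.45 for Cdkn2c and -0.77 to 0.26 for Cdk14. The interval of Cdk14, the gene with the lowest counts, was the widest of the 10.

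The genes around these members were counted in lists drawn up with earlier results of these data known, so their directions are not independent evidence. Over both batches, of all genes, 18.1% were called in HF against LF (9% higher and 9.11% lower) and 10.3% in HFLF against HF (5.44% higher and 4.9% lower). In the same fit, HF against LF, 5 of 11 later cyclins, kinases and Cdc25 phosphatases were called higher and 0 lower (median log2 fold change 0.44). Among those called were Ccne1 at 0.44, the cyclin E that activates Cdk2, Ccna2 at 0.72 and Cdk1 at 0.70, the mitotic kinase. Of 14 genes of S phase entry 9 were called higher and 0 lower (median 0.35), such as Pcna at 0.32, the sliding clamp of DNA polymerase, and Rrm2 at 0.69, a subunit of ribonucleotide reductase. Of 7 proliferation markers, which share Ccnb1 with the later cyclins, 5 were called higher and 0 lower (median 0.58). Their summed level was 180 to 375 CPM in LF and 289.8 to 509 CPM in HF samples of batch 1. In batch 2 it was 385 to 478 CPM in LF and 395 to 489 CPM in HF samples, and the groups overlapped in both batches. Within the batches, the later cyclins, kinases and phosphatases had 0 called in batch 1 and 1 in batch 2. The S phase genes and the proliferation markers had 0 in each. Of the 13 pocket proteins, E2F and DP factors, Tfdp1 (0.27), a DNA-binding partner of E2F, was the single gene called.

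Of 12 genes of CDK activation and inhibitor turnover, 4 were called higher and 1 lower over both batches, beside 9% and 9.11% of all genes. Those higher were Ccnh (0.28), the cyclin of the CDK-activating kinase, Skp1a (0.39), a subunit of SCF ubiquitin ligases, and Cks1b (0.52) and Cks2 (0.39), small CDK-binding proteins, and the one lower was Fbxo31 (-0.31), an F-box protein that targets cyclin D1. The remaining CDK inhibitors had 0 of 3 called, and the relatives of Cdk14 with cyclin Y had 0 of 7 called, with Ccny at 0.14 (SE 0.05, adjusted p = 0.0642 by edgeR). In a list of 14 genes, Trp53 and p53 targets, Ccng1 (0.36) was called higher and Bbc3 (-0.52) and Sesn2 (-0.27) lower. That share was near the 18.1% of all genes called. Of 10 Wnt and stem cell genes 0 were called higher and 3 lower, namely Axin2 (-0.44), Rnf43 (-0.35) and Znrf3 (-0.31), which are negative feedback regulators of Wnt signaling. HFLF against HF over both batches, 10 of the 14 S phase genes were called lower, beside 4.9% of all genes. So was 1 of the 11 later cyclins, kinases and phosphatases (Ccne1, -0.46). The HF samples are shared between the comparisons. Of the 7 proliferation markers 0 were called there, with all 7 negative (median -0.30). Within the batches, the S phase genes had 0 called in batch 1 and 1 in batch 2.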

How the data were processed

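RNA-seq of colonic epithelium from 23 samples (8 LF, 6 HF and 9 HFLF, from what the methods give as 5 mice per regimen) was used. The values are raw read counts per gene locus as deposited by the authors, who prepared stranded Ribo-Zero libraries, trimmed reads with cutadapt 1.2.1, mapped them to mm10 with STAR 2.5 and counted with featureCounts 1.5.0-p1 (names and versions from the submitters' processing notes). The strand setting, the treatment of multi-mapping reads and the gene annotation are not given in the sources used here. No gene symbol of the 10 was repeated in the table.

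Counts were filtered by expression (edgeR 4.0.16, R 4.3.3), scaled by TMM and tested with edgeR's quasi-likelihood test, all 3 diets in one fit, within batch 1, within batch 2 and over both with batch as a covariate. Batch is what the labels call batch. Calls needed a fold above 1.2 and, with Benjamini-Hochberg adjustment over all genes, p under 0.05. SE is the absolute log2 fold change over the root of F. Alternatives were DESeq2 1.42.0 (test and size factors), limma 3.58.1 voom, no filter, no fold minimum, a replicate block, only the diets compared and each sample left out. The steps were tested on simulated data.

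All 10 members are described, with those genes of the lists called over both batches, and the 3 genes most alike to each member called there. The members and lists were chosen with earlier results of these data known. Exon lengths and positions came from GENCODE vM21. Samples of one number were not taken as pairs, since the labels do not link them. Of 20 same-number pairs within a batch, 8 had correlated deviations above 0.1. Pairs of different numbers within a batch were not computed, so that count cannot decide on pairing. No 2 samples of one diet and batch agreed within sampling noise, and pairs across batches were not compared in that way. Across batches, deviations of samples of one diet and number correlated at a median of -0.011 (-0.324 to 0.221, 11 pairs). With other numbers of that diet the median was -0.013 (-0.276 to 0.329, 34 pairs). Library totals were 29189922 to 65320947 counts. Cdk14 and Cdkn2c, with the fewest counts, have the widest counting error.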

Additional observations from a re-analysis of the deposited data

Results flagged for a closer look

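In 2 of 40 groups of 4 or 5 samples, 1 sample stood apart from the others by Dixon's test, and chance would give about 2. Cdkn1b stood at 72.8 CPM in HFLF replicate 1 of batch 2, with the next sample at 80.0 CPM and the highest at 81.6 CPM. Cdkn2b stood at 56.9 CPM in LF replicate 1 of batch 2, with the next at 64.5 CPM and the highest at 65.6 CPM. Neither gene was called in any comparison by edgeR's quasi-likelihood test.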

How the results depend on the processing

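No log2 fold change of a called member turned its sign under any alternative. In batch 1, HF against LF, the count of members called went from 0 to 2 with the DESeq2 Wald test and to 6 with limma voom, and the cause was not tested. Leaving out single samples gave 0 to 3 members there, 0 to 3 in batch 2 and 3 to 5 over both batches. For HFLF against HF the ranges were 0 to 0, 0 to 4 and 1 to 3, and for HFLF against LF 0 to 0 in each fit. Over both batches, HF against LF, Cdk6 and Cdk14 were called in all 20 alternatives and Cdk4 and Cdkn2c in 18 each. HFLF against HF, Cdk6 was called in all 21 and Cdk14 in 18, lost in each case without 1 sample.

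With the replicate number as a block, HF against LF had 0, 3 and 4 members called in batch 1, batch 2 and both, and HFLF against HF had 0, 4 and 2, where the added member was Cdkn2c in batch 2 (-0.32, adjusted p = 0.0441). HFLF against LF had 0, 0 and 0 members called. Over all genes, HF against LF, the block gave 92, 2080 and 2854 calls beside 0, 1069 and 2605 without it. In the labels such samples share only a number. The correlations of same-numbered samples within a batch ran from -0.372 to 0.396, and other pairs within a batch were not computed.

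The 3 HF samples in each batch limit the precision within a batch, and the common biological coefficient of variation was 0.158 in batch 1 against 0.102 in batch 2. The low counts of Cdk14, from 47 to 233 per sample, limit its precision.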

Other observations

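The genes most alike to the called members were found by Pearson's r of log2 CPM over 23 samples after the batch mean was subtracted, a description in which all points share diet and library effects. Cdk4 was followed most closely by Psmg1 (0.955), a proteasome assembly chaperone, Metap1 (0.95) and Snrpg (0.947), a core spliceosome protein. Cdk6 was followed by Usp20 (0.965), Ulk1 (0.958), a kinase that starts autophagy, and Brd3 (0.954). Cdk14 was followed by Lifr (0.896), the receptor of leukemia inhibitory factor, Bcam (0.876) and Rapgef1 (0.874). Cdkn2c was followed by Oip5 (0.925), Smc4 (0.923), a condensin subunit, and Pbk (0.913), a mitotic kinase. With the mean of each diet and batch subtracted, r with these same genes was 0.911 to 0.926 for Cdk4 and 0.91 to 0.931 for Cdk6. It was 0.77 to 0.794 for Cdk14 and 0.83 to 0.873 for Cdkn2c. Among the 4 called members themselves, with only the batch mean subtracted, r was -0.79 between Cdk4 and Cdk6 and -0.766 between Cdk4 and Cdk14. It was 0.738 between Cdk4 and Cdkn2c and -0.724 between Cdk6 and Cdkn2c. For Cdk6 and Cdk14 it was 0.652, and for Cdk14 and Cdkn2c -0.635.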
